A study of Mus musculus with 12 samples.

Results

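The molecular chaperones described here are the heat shock proteins and the DnaJ proteins that work with them, measured in primary cells of the mouse fetal cerebral cortex with and without triiodothyronine (T3), the active thyroid hormone. Members were chosen by gene symbol: every Hsp90, Hspa, Hspb, Hspd, Hspe and Hsph gene, every Dnaja, Dnajb and Dnajc gene, and the added genes Hsf1, Hsf2, Bag3 and Stip1, with pseudogenes left out. The letters also take Hspbp1 and Hspbap1, which encode proteins that bind heat shock proteins. The deposited table of 14801 genes held 67 of them, 40 DnaJ genes and 27 others, and 64 passed the filter on low reads and were tested for an effect of T3 among 13663 genes. Dnajb13, Hspa12b and Hspa1l, with 1 to 33 reads per library, did not pass it. The annotation has 11 more coding genes that the same symbols would take, Hspb1 among them, and these were not analysed here.

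All 12 libraries came from fetuses titled wild type, taken at gestational day 17.5. The sources used here name no strain. Cells of a single fetus, called mouse 1 to 6, gave 1 culture without T3 and 1 culture with 10 nM T3 for 24 h. All the cultures, the controls included, had grown for 9 days and had lost the B27 medium supplement 24 h before T3 was added to the treated ones. These cultures mix cell types: the 8 markers of neurons summed to between 4880 and 6706 normalized reads on the CPM scale (reads scaled to a common library size, called CPM below) and the 8 markers of astrocytes to between 812.8 and 3205. The 5 listed markers of microglia summed to at most 10.2. The 3 listed endothelial markers, Pecam1, Flt1 and Kdr, summed to between 5.86 and 32.1, while Cdh5, Cldn5 and Tek had no value to analyse. In such mixed samples, fewer cells of a type and less RNA per cell cannot be told apart. Libraries held 5272092 to 8136928 reads without T3 and 7460586 to 10837895 with T3. Mouse 4 without T3 gave a library that differed from the rest in 2 marker lists: the 5 listed markers of striated muscle summed to 1358 CPM in it and to at most 84.5 in the other 11 libraries. The 7 listed markers of fibroblasts and mural cells summed to 504.1 in it and to at most 222.3 in the others. In the T3 cultures the muscle sum was mostly Ryr2, with a mean of 66 CPM. Myh6, Myh7, Ttn and Ldb3 had means of 0.751, 2.19, 1.28 and 3.4 there.

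Chaperones of the HSP70 family bind unfolded stretches of protein in a cycle driven by ATP. DnaJ proteins, or J proteins, bring the clients and trigger ATP hydrolysis through their J domain, while HSP110 proteins and Hspbp1 help to release the nucleotide so that the cycle can start again. HSP90 takes over clients close to their folded state, handed across from HSP70 by Stip1, and small heat shock proteins hold unfolded proteins without using ATP. Heat shock factor 1, the product of Hsf1, switches on the inducible genes by binding heat shock elements, which are alternating repeats of GAA and TTC, when unfolded protein builds up. In neurons these proteins also serve vesicle traffic, as when auxilin (Dnajc6) and the constitutive HSP70 (Hspa8) strip the clathrin coat from synaptic vesicles.

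The upstream regions of the 3 members that passed the test are shown with their matches to the heat shock element, the known switch of the inducible genes. They are RefSeq sequence on GRCm38, written 5' to 3' on the strand of the gene, and end at or just before the annotated start site. Capitals mark pairs of repeat units, either GAANNTTC or TTCNNGAA, each of which reads the same on both strands. The region of Hspa1a is chr17:34972157-34972406 (minus strand), that of Hsph1 chr5:149636347-149636586 (minus strand) and that of Hspb6 chr7:30553051-30553285 (plus strand), which lies before the start of its coding transcript and inside the annotated gene. The other annotated window of Hspb6 held no pair.
Hspa1a: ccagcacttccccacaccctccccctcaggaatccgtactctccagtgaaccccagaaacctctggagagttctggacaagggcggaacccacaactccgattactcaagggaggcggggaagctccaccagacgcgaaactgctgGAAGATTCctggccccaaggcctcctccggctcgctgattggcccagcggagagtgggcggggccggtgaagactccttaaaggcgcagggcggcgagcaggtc
Hsph1: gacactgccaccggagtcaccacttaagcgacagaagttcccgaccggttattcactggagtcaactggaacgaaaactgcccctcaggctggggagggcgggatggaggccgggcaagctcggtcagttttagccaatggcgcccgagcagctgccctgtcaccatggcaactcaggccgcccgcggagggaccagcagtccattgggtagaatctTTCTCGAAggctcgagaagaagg
Hspb6: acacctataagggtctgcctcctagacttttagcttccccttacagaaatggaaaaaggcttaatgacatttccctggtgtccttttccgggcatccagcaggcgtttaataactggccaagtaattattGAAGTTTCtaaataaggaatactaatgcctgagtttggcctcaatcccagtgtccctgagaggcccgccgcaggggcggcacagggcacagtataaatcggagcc
Each of these regions holds 1 pair, which begins 104 bases before the start site in Hspa1a, 33 in Hsph1 and 120 in Hspb6. The start sites are those of RefSeq. The pair of Hsph1 lies inside the gene as GENCODE draws it, since that gene reaches chromosome 5 position 149636376. Hsph1 also holds a run of 3 units, TTCTGGAAAGTTC, 37 to 49 bases after the same start site. Windows of 250 bases before and 50 after the start were found for 55 of the 67 members. A pair lay in a window of 14 of these 55 (25.5%) against 17% of all 27025 genes with a window. A run of 3 units, either GAANNTTCNNGAA or TTCNNGAANNTTC, which holds 2 overlapping pairs, lay in a window of 4 members (7.27%) against 0.662% of all genes. These 4 were Hsph1, Hspd1, Hspe1 and Dnajb6. The textbook response element of thyroid hormone receptors, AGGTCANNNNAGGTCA on either strand, lay in a window of 0 of the 55 members and of 0.0148% of all genes. Only exact letters were counted, and the heat-inducible Dnajb1 held no pair in its 2 windows. Such matches describe the letters of these windows and no binding was measured.

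Few chaperone genes passed the test, and most fitted changes were small. Of the 64 members tested, 3 rose and none fell: Hspb6, Hsph1 and Hspa1a (limma, adjusted p under the threshold of 0.05). That is 4.69% of the members, beside 5.52% of all 13663 genes tested (3.37% higher and 2.14% lower), so the share of members called lay near that of all genes. No DnaJ gene passed among the 39 tested (limma; 4 had an unadjusted p under 0.05, and edgeR and DESeq2 called 0 as well). The median log2 change was 0.04 over the 64 members and 0.003 over all genes. The 95% confidence interval of the change lay within 1.2-fold in either direction for 41 members (64.1%, against 49.4% of all genes tested). It lay within 1.5-fold for 61 (95.3%, against 90.5% of all genes), all but Hspb6, Dnajb3 and Dnajc19. Called by edgeR were 3 members, beside 5.72% of all genes, and by DESeq2 2 members, beside 3.89%. An unadjusted p under 0.05 was found for 10 members (15.6%, against 17.5% of all genes). Without the mouse as a block, which leaves the spread between mice in the error, none of the 64 passed, beside 178 of all genes (1.3%).

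**Figure D1:**
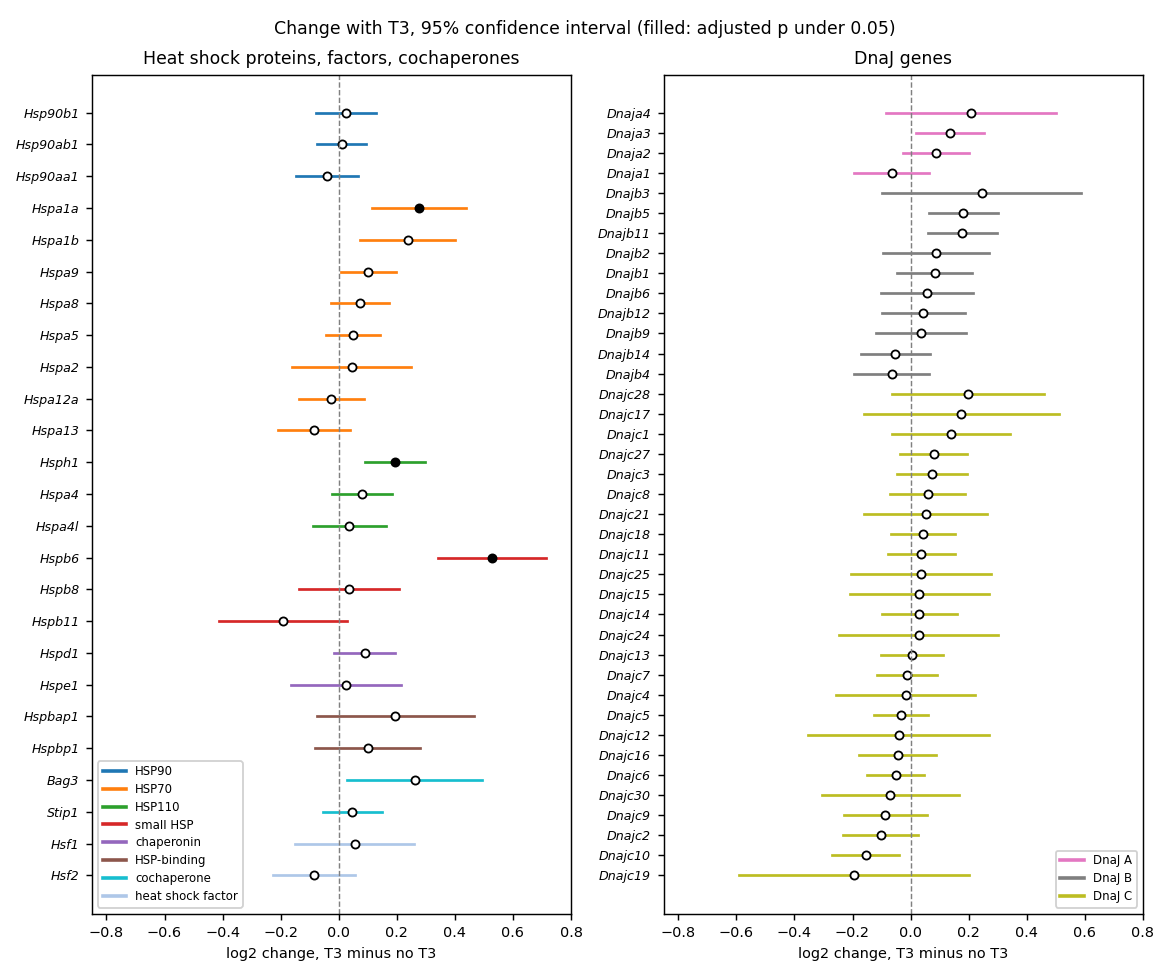
Log2 change with T3 of the 64 tested members (horizontal axis), heat shock proteins and their partners on the left and DnaJ genes on the right. Circles are the fitted changes on the log2(CPM + 0.5) scale, lines their 95% confidence intervals from limma, and colours the families. Filled circles mark the 3 members with an adjusted p under 0.05, and most other intervals include 0.

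Among the small heat shock proteins taken by symbol, 1 of 3 passed, with the largest change of all members. Hspb6, or Hsp20, is a small heat shock protein best known from heart and smooth muscle, and its gene (ENSMUSG00000036854) lies on chromosome 7 from 30552178 to 30555443 of GRCm38. It stood at 10.1 to 19.5 CPM without T3, with a median of 17.8, and at 18.7 to 30.8 with T3, with a median of 24.7. The T3 culture was the higher of the pair in 6 of 6 mice, while the groups overlapped, since the T3 cultures of mice 2 and 6 lay below the highest cultures without T3. The fitted change was 1.44-fold (log2 change 0.53, SE 0.089, limma adjusted p = 0.000759, n = 6 pairs). The call held without any 1 mouse (adjusted p at most 0.00479, and 0.00189 without mouse 4) and was lost without the mouse as a block (adjusted p = 0.16). In the mouse 4 library that stood apart in muscle and fibroblast markers, Hspb6 stood at 19.3, inside the range of the other cultures without T3.

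Markers of several cell types also differed with T3, in both directions. Of the 7 astrocyte markers tested, 4 rose and none fell (Slc1a2, Gfap, Aqp4 and Aldh1l1), and the summed level of the 8 listed was higher with T3 in 6 of 6 mice, from 812.8 to 2741 CPM without T3 and from 1229 to 3205 with it. Markers of oligodendrocyte precursors summed to 291.6 to 438.2 without T3 and 394.3 to 497 with T3, also higher in 6 of 6 mice. Of these 6 markers, 3 rose and none fell (Gpr17, Olig1 and Olig2). Gpr17 rose most, by 2.35-fold (limma adjusted p = 1.22e-07). Markers of fibroblasts and mural cells summed to 106.6 to 504.1 without T3 and 60.8 to 222 with T3, higher in 1 of 6 mice. Of these 7 markers, 6 had a log2 change below 0 and 1 above. Dcn alone passed, as a fall (log2 change -0.47, limma adjusted p = 0.00806). Acta2, the actin of smooth muscle, was lower in 6 of 6 mice without passing (log2 change -0.58, adjusted p = 0.289). Pdgfrb went the other way, higher in 5 of 6 mice (log2 change 0.24, adjusted p = 0.502). Col3a1 was higher in 4 of 6 mice, though its fitted change was -0.73. The sum of the 8 neuron markers, in which Map2 and Tubb3 stood highest, was higher with T3 in 1 of 6 mice. Of these 8 markers, 4 had a log2 change above 0 and 4 below. Rbfox3 alone passed, as a rise (log2 change 0.27, limma adjusted p = 0.01005). The part of cell composition in the rise of Hspb6 was not tested. Both other small members missed the threshold. Hspb8, which works with Bag3 in the clearance of misfolded protein, stood at 30.9 ± 5.11 without T3 and 31.9 ± 6.92 with T3 (SD, n = 6). Hspb11, whose product is a subunit of the transport machinery in cilia, stood at 9.95 ± 0.955 and 8.68 ± 1.16 (log2 change -0.19, limma adjusted p = 0.373).

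The HSP110 genes encode the nucleotide exchange factors of HSP70. Hsph1, the heat-inducible member (ENSMUSG00000029657, chromosome 5 from 149614287 to 149636376), ran from 238.8 to 296.5 CPM without T3 with a median of 279.4, and from 270.6 to 340.5 with T3 with a median of 310. It was higher with T3 in 6 of 6 mice, and the groups overlapped because mice differed in their starting level. The change was 1.14-fold (log2 change 0.19, SE 0.0498, limma adjusted p = 0.0231). Its call was lost without mouse 2, 3 or 4 (adjusted p = 0.0835, 0.0958 and 0.0989) and without the mouse as a block (0.271). Hspa4, a constitutive member, stood at 389.3 ± 30.2 and 411 ± 18.3 (adjusted p = 0.443), and Hspa4l at 91.4 ± 10.3 and 94.3 ± 16 (adjusted p = 0.821).

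Among the HSP70 genes, Hspa1a passed, and its stress-inducible near copy Hspa1b did not. Hspa1a (ENSMUSG00000091971) lies on chromosome 17 from 34969190 to 34972156, and Hspa1b (ENSMUSG00000090877) on the same strand from 34956436 to 34959238. Hspa1a ran from 25.4 to 42.3 CPM without T3 with a median of 36.7, and from 35.8 to 47.9 with T3 with a median of 43.6. It was higher in 6 of 6 mice, with mouse 6 showing the widest step, and the groups overlapped. The change was 1.21-fold (log2 change 0.28, SE 0.0775, limma adjusted p = 0.0398). That call stood close to the threshold: it was lost with DESeq2 (adjusted p = 0.111), without any 1 of mice 2 to 6 (adjusted p from 0.052 to 0.187, the last without mouse 6) and without the mouse as a block (0.407).

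Hspa1b ran from 26.2 to 44.4 CPM without T3 with a median of 34.9, and from 30.8 to 50.5 with T3 with a median of 42. It was higher in 5 of 6 mice and missed the threshold (log2 change 0.24, SE 0.0786, limma adjusted p = 0.0888). The 2 genes are near copies. Of all stretches of 75 bases, the read length, in the transcripts of Hspa1a, 52.7% also occur in Hspa1b, and 55.8% of those of Hspa1b occur in Hspa1a. Their promoter windows of 300 bases agree at 296 positions and differ by C44T, T47C, T249G and C276T, with positions counted from the 5' end and the base of Hspa1a first. How reads that match both were counted is not given in the sources used here, so the split between the pair is uncertain. Gm20481 also lies antisense to 19% of the Hspa1a exon, and the library kit does not mark strand.

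**Figure D2:**
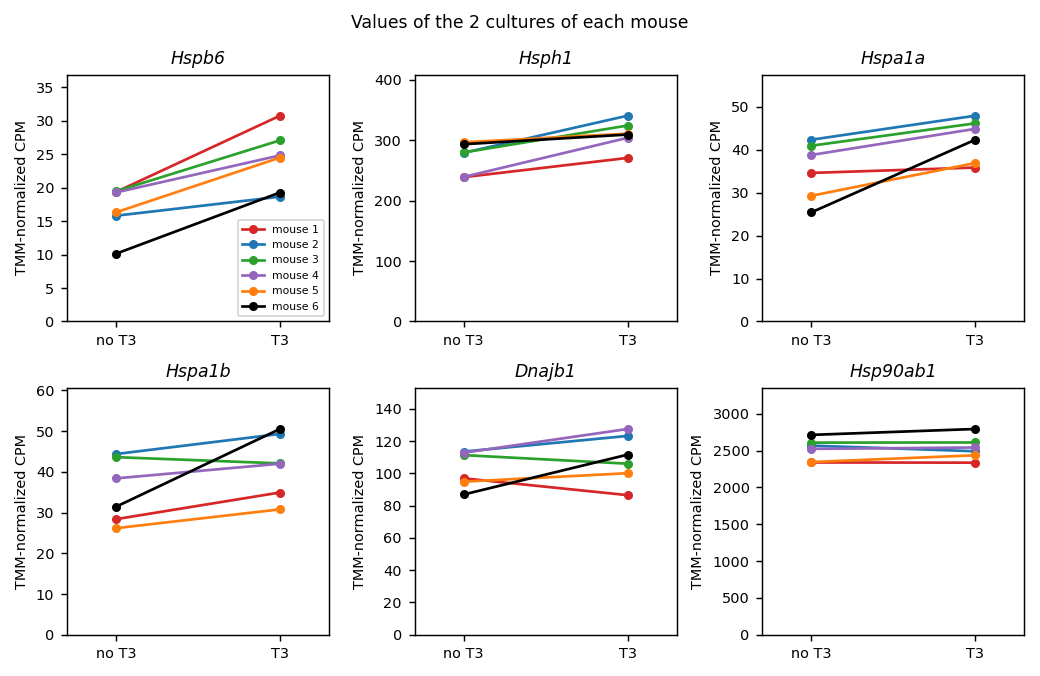
TMM-normalized CPM (vertical axes, from 0) of 6 members in the culture without T3 and the culture with T3 of each mouse, joined by a line and coloured by mouse. Hspb6, Hsph1 and Hspa1a are higher with T3 in 6 of 6 mice, Hspa1b in 5 of 6, and Dnajb1 and Hsp90ab1 in 4 of 6.

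The other HSP70 genes did not pass. Hspa8, the constitutive cytosolic form, ran from 143 to 241.6 CPM without T3 and from 146 to 257.8 with T3 (medians 216.6 and 231.9). It was higher in 6 of 6 mice by small steps (log2 change 0.07, 95% interval -0.03 to 0.17, limma adjusted p = 0.487). Hspa9, or mortalin, the mitochondrial HSP70, was likewise higher in 6 of 6 mice, at 377.1 ± 10.7 and 404.9 ± 12.7 (log2 change 0.10, unadjusted p = 0.0369, adjusted p = 0.247, limma). Hspa5, or BiP, the HSP70 of the endoplasmic reticulum and the standard readout of stress there, stood at 565.3 ± 20.4 and 584.8 ± 26.1, with an interval of 0.97-fold to 1.10-fold. Hspa13 stood at 116 ± 8.52 and 109.2 ± 7.67, Hspa12a, a distant relative found in neurons, at 205.9 ± 20.4 and 202 ± 16.4, and Hspa2 at 13.3 ± 5.28 and 13.4 ± 4.45.

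The HSP90 genes include Hsp90ab1, the member with the highest level, and none of them passed. Hsp90ab1, the constitutive cytosolic form, ran from 2338 to 2712 CPM without T3 and from 2335 to 2792 with T3, with medians of 2544 and 2516. Its change had a 95% interval of 0.95-fold to 1.07-fold (limma adjusted p = 0.937). Hsp90aa1, the inducible cytosolic form, ran from 325.2 to 400.5 without T3 and from 334.2 to 370.8 with T3, lower in 4 of 6 mice (interval 0.90-fold to 1.05-fold, adjusted p = 0.763). Hsp90b1, or GRP94, in the endoplasmic reticulum, stood at 317.5 ± 10.6 and 323.6 ± 21.7 (adjusted p = 0.854). None of these 3 passed in limma, edgeR or DESeq2, and none had an unadjusted p under 0.05 in limma. Of the 75-base stretches of Hsp90aa1, 42.8% occur in other annotated transcripts, mostly of the pseudogene Gm12346.

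Hspd1 and Hspe1, which encode the mitochondrial chaperonin HSP60 and its lid HSP10, lie next to each other on opposite strands and both carry the run of 3 repeat units described above. Hspd1 ran from 120.9 to 146.4 CPM without T3 and from 138.5 to 149.7 with T3, higher in 6 of 6 mice, with the largest step in mouse 1 (log2 change 0.09, limma adjusted p = 0.397). Hspe1 ran from 14.1 to 26.5 and from 15.3 to 24.4, higher in 3 of 6 mice (adjusted p = 0.93). Stretches shared with other transcripts made up 31% of Hspd1 and 14.6% of Hspe1.

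DnaJ genes of class A, which resemble the bacterial founder protein most closely, numbered 4. Dnaja1, a partner of Hspa8 that heat also induces, ran from 134 to 179 CPM without T3 and from 142.7 to 158.7 with T3, higher in 3 of 6 mice (log2 change -0.06, limma adjusted p = 0.665). Dnaja2 stood at 205.2 ± 18.5 and 217.6 ± 8.68. Dnaja3, whose product works in mitochondria, stood at 65.9 ± 4.15 and 72.4 ± 4.09, higher in 5 of 6 mice (log2 change 0.14, unadjusted p = 0.0263, adjusted p = 0.202, limma). Dnaja4 stood at 5.66 ± 1.3 and 6.6 ± 1.49, with 44.1% of its exons under the antisense gene Wdr61.

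Class B held Dnajb11 and Dnajb5, the members closest to the threshold among those that missed it. Dnajb11, or ERdj3, a secreted and luminal partner of BiP, ran from 50.9 to 62.9 CPM without T3 and from 57.2 to 65 with T3, with medians of 54.9 and 63.4. It was higher in 6 of 6 mice by 1.13-fold, with overlapping groups (SE 0.0563 on the log2 scale, limma adjusted p = 0.0711). Dnajb5, a cytosolic J protein of the same class as Dnajb1, ran from 67.7 to 82.7 and from 73 to 101.7, with medians of 75 and 85.6, again 1.13-fold and higher in 6 of 6 mice (limma adjusted p = 0.0719). It passed without mouse 1 (adjusted p = 0.0346). Dnajb1, or HSP40, among the most heat-inducible J proteins, ran from 86.9 to 113.5 and from 86.5 to 127.5, higher in 4 of 6 mice (log2 change 0.08, 95% interval -0.05 to 0.21, adjusted p = 0.554). Dnajb9, or ERdj4, a target of the unfolded protein response, stood at 59.8 ± 5.17 and 61.8 ± 9.59 (adjusted p = 0.857). The other tested class B genes, Dnajb2, Dnajb3, Dnajb4, Dnajb6, Dnajb12 and Dnajb14, had log2 changes from -0.07 to 0.24.

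Class C, with 25 members, joins genes that share little beyond the J domain. The genes of synaptic vesicle traffic stood highest: Dnajc5, which encodes cysteine string protein, a chaperone of synaptic vesicles, was at 676.1 ± 37.5 and 660.7 ± 30.9 CPM, and Dnajc6 at 391.6 ± 21.8 and 378.1 ± 24.7. Their intervals ran from 0.92-fold to 1.04-fold and from 0.90-fold to 1.03-fold. Dnajc10, or ERdj5, a disulfide reductase of the endoplasmic reticulum, ran from 110.6 to 133.6 without T3 and from 97.7 to 115 with T3, with medians of 115.3 and 107.9. It was lower in 6 of 6 mice (log2 change -0.15, SE 0.0558, unadjusted p = 0.0118, adjusted p = 0.128, limma).

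None of the 25 class C genes passed in limma, edgeR or DESeq2, and 14 had a change above 0 and 11 below. Over all genes tested, 5.52%, 5.72% and 3.89% passed with these tools, and 51.1% had a change above 0 in limma. Dnajc7, a cochaperone that binds both HSP70 and HSP90, stood at 193.9 ± 9.24 and 192 ± 8.09. Dnajc13, an endosomal J protein, stood at 104.1 ± 5.19 and 104.4 ± 5.08. Dnajc3, a J protein of the endoplasmic reticulum lumen, stood at 62.8 ± 9.62 and 66.5 ± 13.2. Dnajc2, which sits on the ribosome, stood at 45.6 ± 3.65 and 42.4 ± 2.42, and Dnajc9, a histone chaperone, at 33.4 ± 2.08 and 31.4 ± 2.46. The class C gene with the widest interval was Dnajc19, of the mitochondrial import motor, with 14 to 35 reads per library and a change between 0.66-fold and 1.15-fold.

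The regulators did not pass the test. Hsf1 stood at 12.1 ± 2.46 and 12.5 ± 1.5 CPM (log2 change 0.05, limma adjusted p = 0.841) and Hsf2, a related factor, at 54.3 ± 5.76 and 51.1 ± 3.79 (log2 change -0.08, adjusted p = 0.592). Bag3, a heat-inducible cochaperone that links HSP70 to autophagy, ran from 6.93 to 13.1 without T3 and from 11.6 to 16.8 with T3, with medians of 11.9 and 12.8. It was higher in 5 of 6 mice (log2 change 0.26, unadjusted p = 0.029, adjusted p = 0.214, limma). Stip1 ran from 140.4 to 163.8 and from 142.7 to 169.3 (adjusted p = 0.699), Hspbp1 stood at 72.2 ± 8.18 and 77.7 ± 11.8, and Hspbap1 at 6.72 ± 1.06 and 7.74 ± 0.916.

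Small upward steps were common among the members, and no test compared their share with that of other genes. A log2 change above 0 was found for 45 of 64 members (70.3%, against 51.1% of all genes tested), and 8 members were higher in 6 of 6 mice (12.5%, against 5.79% of all genes). These 8 were Hspb6, Hsph1, Hspa1a, Dnajb5, Dnajb11, Hspa8, Hspa9 and Hspd1. Dnajc10 alone was lower in 6 of 6 mice, 1.56% of the members against 4.98% of all genes. In no member did the libraries of both groups fail to overlap, while this was so for 1.68% of all genes. Among the 11 members listed as heat-inducible, 2 passed (against 5.52% of all genes), 9 lay above 0 and the median log2 change was 0.08. That list held Hspa1a, Hspa1b, Hsp90aa1, Hsph1, Dnajb1, Dnaja1, Hspd1, Hspe1, Bag3, Stip1 and also Hspa8, called constitutive above. Among the 14 tested members with a pair of repeat units in a promoter window, 3 passed and 11 lay above 0, with a median of 0.08. Over all 1338 tested genes with such a pair, 5.9% passed and 51.6% lay above 0, beside 5.58% and 50.8% of the 8699 with a window and no pair. Of the 38 tested members with a window and no pair, 28 lay above 0, with a median of 0.04. Of the 4 members with a run of 3 units, Hsph1 passed and all 4 lay above 0, with a median of 0.07, while 5.45% of the 55 tested genes with such a run passed and 49.1% lay above 0. These sets of members were compared after their values had been seen.

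Other lists of chaperone genes, which the symbols did not take, showed no call. These lists were short, and over all genes tested 5.52% passed and 17.5% had an unadjusted p under 0.05 (limma). They include relatives of the families above, such as Cryab, Hyou1 and Trap1. None of 26 genes listed as other partners of HSP70 and HSP90, Cryab and Hyou1 among them, passed in limma, edgeR or DESeq2. Of these 26, 2 had an unadjusted p under 0.05. Their median log2 change was 0.002, and Bag1, the highest per exon length, stood at 119.7 ± 9.88 and 122.5 ± 9.42 CPM. None of the 14 genes for TRiC, the cytosolic chaperonin, and prefoldin passed with any of the 3 tools (1 with an unadjusted p under 0.05, median -0.008). None of 18 genes of folding and the unfolded protein response in the endoplasmic reticulum, counted without the members Hspa5 and Hsp90b1, passed with any of these tools either (2 with an unadjusted p under 0.05, median 0.04), and Calr, the highest per exon length, stood at 486.5 ± 21.9 and 504.8 ± 29.2. The 12 genes of mitochondrial folding and proteolysis gave 0 calls with all 3 tools and 0 with an unadjusted p under 0.05.

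Levels between genes were compared as CPM per kb of exon. Without T3, Hsp90ab1 stood at 838.6 CPM per kb, above Hsp90aa1 at 92.4 and Hsp90b1 at 78.8. It made up 83% of the sum of the 3 HSP90 genes taken by symbol. Hspa5 led the HSP70 genes with 133.7, followed by Hspa9 with 87.5 and Hspa8 with 46.3, while Hspa1a and Hspa1b stood at 11.9 and 12.6. Hspa4 led HSP110 with 70.4, Stip1 stood at 72.3 and Hspd1 at 51.5. Among J proteins Dnajc5 (97.2), Dnaja2 (69) and Dnajc6 (66.3) stood highest, and Dnajb1, the highest of class B, at 32.1. The small heat shock proteins were low, with Hspb8 at 15.9 and Hspb6 at 7.28, and so was Hsf1 at 1.71. Members that share sequence with pseudogenes or overlap other genes may be set too low or too high on this scale: for 12 of the 67, over 10% of the 75-base stretches occur in another gene's transcripts, among them Hspa8 (33%).

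**Figure D3:**
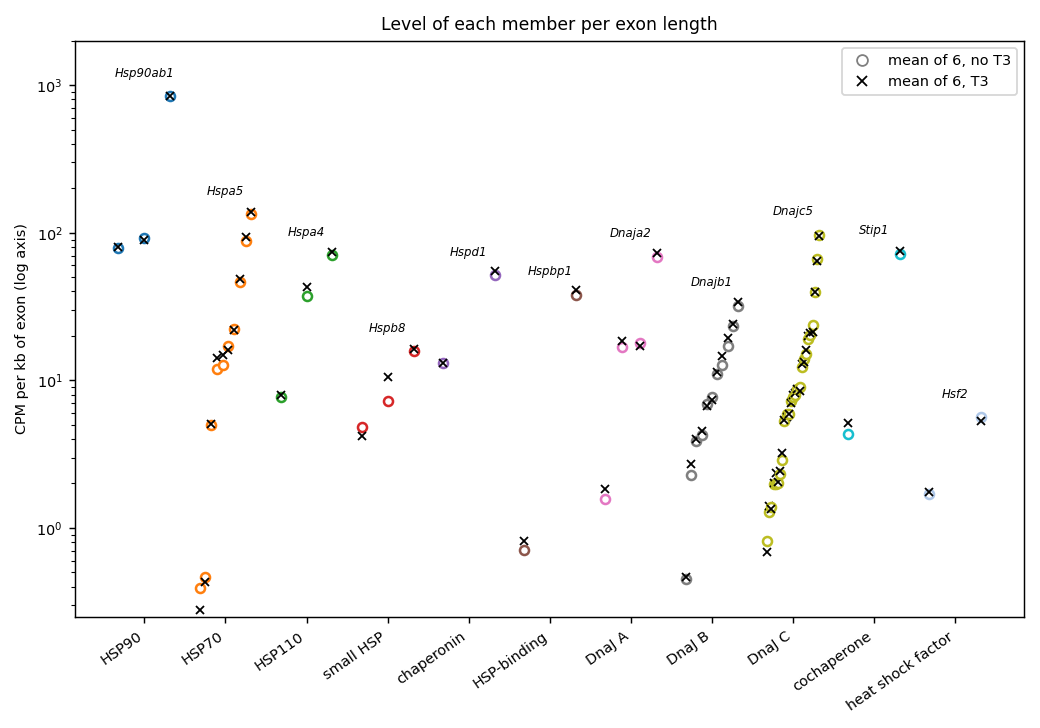
Mean level of each of the 67 members in CPM per kb of exon (vertical log axis) by family, as open circles for 6 cultures without T3 and crosses for 6 with T3. The member with the highest level of each family is named, from Hsp90ab1 at 838.6 down to Hsf2, and circle and cross nearly coincide for most members.

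The pair means of the mice differed by more than T3 changed most members, and the same held for most genes. Such means also carry the spread of single cultures and counting noise. The SD between mice of the mean log2 level exceeded the size of the T3 change for 44 of 64 members (68.8%, against 70.9% of all genes tested). Hspa2 varied most, from 8.6 CPM as the mean of the pair in mouse 6 to 22.4 in mouse 1. Hspa8 came next: both cultures of mouse 3 (143 and 147.7) and of mouse 6 (144.3 and 146) stood near 145, while the other 8 libraries stood between 208.9 and 257.8. Over the same 12 libraries Hspa5 ran between 531.6 and 630.3 and Hsp90ab1 between 2335 and 2792. Of the 75-base stretches of Hspa8, 30.2% occur in the pseudogene Gm15459. The part of such shared sequence in the difference between mice was not tested. Like Hspa2, the summed astrocyte markers stood highest in mouse 1 and lowest in mouse 6 (2741 and 812.8 CPM without T3). The part of cell composition in the differences between mice was not tested either.

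**Figure D4:**
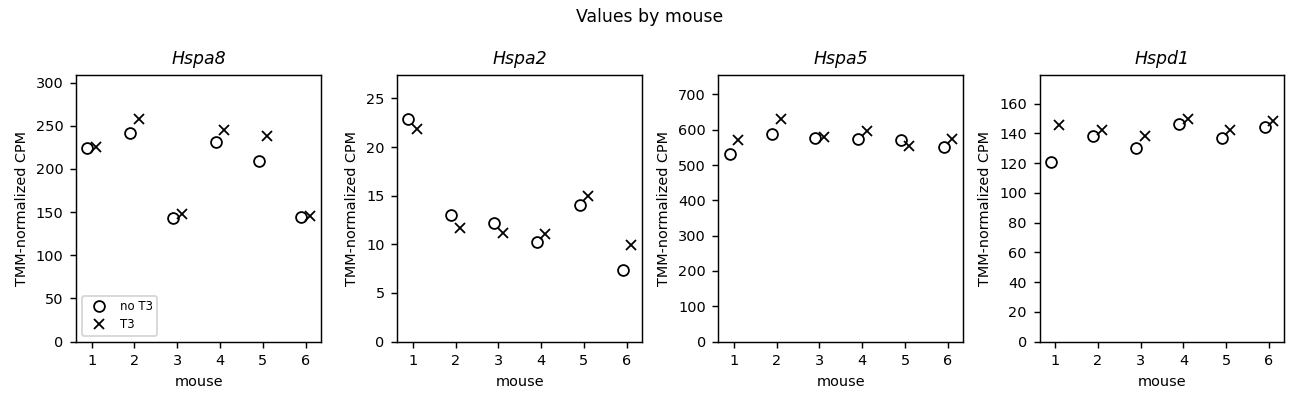
TMM-normalized CPM (vertical axes, from 0) of 4 members by mouse, as open circles without T3 and crosses with T3. In Hspa8 the cultures of mice 3 and 6 lie between 143 and 147.7 and all others above 208, in Hspa2 mouse 1 lies highest, and Hspa5 and Hspd1 vary little between mice.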

How the data were processed

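RNA of 12 cultures was sequenced as single reads of 75 bases. Per the submitters' processing notes, the authors used Bowtie, TopHat and HTSeq with GRCm38, and also CASAVA, FastQC and edgeR, with no versions listed. The deposited signal is reads per gene scaled to library size and by TMM, a factor that corrects for composition, and it is called CPM here. Every value of a library was a whole multiple of the value of 1 read (100% within 0.01 reads), which gave back the reads: 5272092 to 10837895 per library, so that 1 read is worth 0.0911 to 0.186 CPM. Genes of low reads were removed by the filterByExpr rule of edgeR 4.0.16, which left 13663 of 14801. Changes were fitted with limma 3.58.1 (R 4.3.3) on log2(CPM + 0.5) with the mouse as a block, a mean-variance trend and robust estimation. Two-sided p-values received Benjamini-Hochberg adjustment over all genes tested, and the log2 scale with 0.5 added understates changes of low genes.

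The mouse pairs the samples because the series' design states that a single fetus gave both cultures. Deviations from the group means correlated between 0.237 and 0.638 within the 6 pairs. P-values of the fits with the mouse as a block set the change against its spread between the 6 pairs. Libraries of a group differed beyond counting noise (chi-square per degree of freedom 2.51 to 19.3). The count tests of edgeR and DESeq2 1.42.0 on the recovered reads, other scalings, pseudocounts and filters, no block, and leaving out each mouse were alternatives. The members and lists were chosen with earlier results of these data known. The remark on Hspa8 and the members near the threshold were chosen after their values were seen. Symbols, lengths and overlaps come from GENCODE M21 on GRCm38, with 14648 symbols found, and promoter windows from RefSeq on GRCm38.p6.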

Additional observations from a re-analysis of the deposited data

Results flagged for a closer look

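In 12 of 134 groups of 6 libraries, 1 library stood apart from the other 5 by more than Dixon's critical value for 6, where chance alone gives about 1 in 20 groups. Mouse 1 with T3 was the highest for Hspa4l (126 CPM against 82.1 to 92.6), for Dnajc1, a J protein of the endoplasmic reticulum membrane (24.8 against 12.6 to 16.5), and for Bag3 (16.8 against 11.6 to 13.3). It was the lowest for Dnajb11 (57.2 against 62.7 to 65) and for Dnajc5 (601 against 657 to 684). Dnajb13, known from sperm and cilia, was highest in both cultures of mouse 1, at 3.5 without T3 (0.385 to 1.08 in the others) and 4.29 with T3 (0.194 to 0.916). Dnajc30 was lowest in mouse 1 without T3 (8.08 against 9.72 to 10.7).

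Mouse 2 with T3 was the highest for Dnaja1 (159 against 143 to 147) and Hspa4 (446 against 398 to 414). Dnajc12, a cochaperone of the aromatic amino acid hydroxylases, was lowest in mouse 6 without T3 (4.24 against 6.34 to 6.87). Hspa12b, known from endothelium, was highest in mouse 4 without T3 (3.71 against 0.135 to 1.32), the library that also stood apart in muscle and fibroblast markers.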

How the results depend on the processing

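The rises of Hspb6 and Hsph1 kept their direction and passed with either other pseudocount, without the filter, with RLE scaling or library size alone, and with edgeR and DESeq2, and that of Hspa1a passed under all of these but DESeq2. The number of members called was 3 under these settings but for 2 with DESeq2, and 1 to 4 when 1 mouse was left out. It was 1 without mouse 2, 3 or 4, where Hspb6 alone passed. With the replicate block removed, 0 members and 178 genes in all were called. Over all genes, the mice left out in turn gave 458 to 860 calls, with 458 without mouse 3. The median change of DnaJ class C ran from -0.017 without mouse 1 to 0.0324 over the mice left out. For 16 members without a call, the log2 change crossed 0 when some mouse was left out: Dnajb9 (-0.032 to 0.116), Dnajc12 (-0.201 to 0.0452), Dnajc13 (-0.0196 to 0.0273), Dnajc15 (-0.0572 to 0.148), Dnajc21 (-0.00117 to 0.0961), Dnajc24 (-0.0885 to 0.116), Dnajc25 (-0.0188 to 0.115), Dnajc30 (-0.116 to 0.0211), Dnajc4 (-0.055 to 0.0325), Dnajc7 (-0.0355 to 0.00949), Hsp90b1 (-0.00643 to 0.0522), Hspa12a (-0.0721 to 0.00194), Hspa2 (-0.0285 to 0.0852), Hspa4l (-0.0136 to 0.0836), Hspb8 (-0.0316 to 0.108), Hspe1 (-0.0608 to 0.0721). With DESeq2 that of Dnajc13 was -0.000898. The cause of these shifts was not tested. The median log2 change of all genes was 0.00308 in the main fit, -0.00184 with RLE scaling and 0.0068 with library size alone. Low reads limit Dnajb3 and Dnajc19, whose intervals reach beyond 1.5-fold, and Dnajb13, Hspa12b and Hspa1l were not tested at this depth.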
